A study of Mus musculus with 72 samples.

Results

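The MHC class II genes and their regulator *Ciita* were followed in the blood of irradiated mice. The set holds 10 genes, found by gene name on the array, each represented by its brightest detected probe: the classical chains *H2-Aa*, *H2-Ab1* and *H2-Eb1*, the invariant chain *Cd74*, the peptide editors *H2-DMa*, *H2-DMb1* and *H2-DMb2*, their modulators *H2-Oa* and *H2-Ob*, and *Ciita*. All 10 were among the 10863 genes tested, and none was lost to the filters on dim or invariable probes. Male adult C57BL/6 mice, 72 in number with 1 array each, had been exposed to a neutron beam (0.25 or 1 Gy), to x-rays (1 or 4 Gy), or to no radiation. The beam carried a gamma-ray component, and control mice were placed in the same holders with the beam off. Blood was drawn from the heart 1, 3 or 7 days later, and globin RNA was removed. Controls numbered 5 mice at day 1, 5 at day 3 and 6 at day 7, and served for both kinds of radiation. The 0.25 Gy neutron groups held 6, 6 and 5 mice at days 1, 3 and 7, and the 1 Gy neutron groups 6 and 6 at days 1 and 7. X-rays of 1 Gy were given to 6, 5 and 5 mice of days 1, 3 and 7, and those of 4 Gy to 5 and 6 mice of days 1 and 7. The RNA is that of whole blood, with no cell type sorted, and each mouse is a separate replicate.

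Class II molecules present peptides from the endosome to CD4 T cells. In blood they are carried mainly by B cells, and also by dendritic cells and some monocytes. An alpha and a beta chain pair in the endoplasmic reticulum around the invariant chain, which blocks the groove and guides the complex to the endosome. There H2-DM exchanges the remnant of the invariant chain for peptide, and H2-DO, found mostly in B cells, restrains H2-DM. Ciita does not bind DNA itself. It is recruited by factors that sit on the X and Y boxes of the class II promoters, and its own amount sets how strongly these genes are transcribed.

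The X and Y boxes can be read in the promoters of the set, which are shown because they are the sequence that the class II genes share and that Ciita acts through. RefSeq promoter windows on GRCm38.p6 (250 bases before to 50 after the start) were found for 7 of the 10 genes, with 8 windows in all. The letters TGATTGG, the core of the Y box, were searched on the strand of the gene and its complement, and occur in the windows of 6 of these 7 genes, against 7.82% of all 32851 windows. The letters of an X box, AAC followed after any 2 bases by ATGATG, occur in 4 of the 8 windows, against 0.137% of all. Both together occur in the same 4 windows and in 0.0274% of all. A stretch from 60 bases before TGATTGG to 10 after it is printed for each, 5′ to 3′ on the strand of the gene, with the motifs in capitals; the coordinates are chr17:34287857-34287933 (minus strand) for *H2-Aa*, chr17:34305746-34305822 for *H2-Eb1*, chr17:34153068-34153144 for *H2-DMb1*, chr17:34145097-34145173 for *H2-DMb2*, chr17:34092274-34092350 for *H2-Oa* and chr17:34238786-34238862 for *H2-Ob*, the last 5 on the plus strand.
H2-Aa: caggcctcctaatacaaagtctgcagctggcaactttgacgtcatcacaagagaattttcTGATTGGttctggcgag
H2-Eb1: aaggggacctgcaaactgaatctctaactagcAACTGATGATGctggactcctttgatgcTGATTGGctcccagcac
H2-DMb1: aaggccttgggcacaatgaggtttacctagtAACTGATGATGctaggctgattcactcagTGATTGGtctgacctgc
H2-DMb2: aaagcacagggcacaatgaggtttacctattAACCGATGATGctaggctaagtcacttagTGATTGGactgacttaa
H2-Oa: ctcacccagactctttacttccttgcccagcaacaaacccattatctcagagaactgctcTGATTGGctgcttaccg
H2-Ob: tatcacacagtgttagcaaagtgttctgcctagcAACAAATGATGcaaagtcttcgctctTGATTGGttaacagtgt
In *H2-Eb1*, *H2-DMb1*, *H2-DMb2* and *H2-Ob* the motifs are separated by 15 to 18 bases, and TGATTGG begins 45 to 92 bases before the start in the 6 genes. The 2 windows of *H2-DMa* hold neither set of letters. A match describes the letters in this window only. No window was matched for *H2-Ab1*, *Cd74* or *Ciita*.

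Levels are given as the log2 of the background-corrected intensity minus the log2 median of the detected probes of that array, so that 0 is a transcript of median brightness, and they are compared only within a probe. A gene was called where limma gave p below 0.001 and, after adjustment by Benjamini and Hochberg across the 10863 genes, an FDR below 0.05. Between 40.2 and 50.3% of the probes of an array were well above background at day 7 after 1 Gy of neutrons, and between 49.5 and 67.3% in the other groups. The member probes were well above background on every array but for *H2-DMb2*, which was so on 3 of the 5 arrays of 4 Gy of x-rays at day 1. A pair of arrays stood apart from their groups over all genes: replicate 1 of 1 Gy of x-rays at day 3 (mean correlation with its group 0.860) and replicate 5 of 0.25 Gy of neutrons at day 1 (0.875), the lowest of the 72. No x-ray array was scanned on the same date as the controls of its day, and the 6 arrays of 4 Gy of x-rays at day 7 were all scanned on 1 date and their 6 controls on another, so that scan date and exposure cannot be told apart there. Values within a shared scan date are given where there is one.

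Class II transcripts fell after every exposure of 1 Gy or more at day 1. The 10 genes were lower by 1.79 to 3.33 on the log2 scale after 1 Gy of neutrons, and by 2.81 to 5.11 after 4 Gy of x-rays, and were all called, as were 10.5% and 18.6% of all genes in that direction. No member's range in these groups overlapped that of the controls, which was so for 13.8% and 23.4% of all genes. After 1 Gy of x-rays, 6 of 10 were called lower, against 4.56% of all genes, with a median change of -0.82, and 4 did not overlap the controls, against 5.88%. These 6 calls ended (0 called) with another background correction, with spike-in scaling and with scan date as a block. As no scan date was shared, date entered that fit as a random block, which cannot separate it from exposure. In whole blood, fewer cells of a type and less RNA per cell cannot be told apart. The median of all genes lay between -0.01 and 0.05 in these 3 comparisons.

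**Figure D1:**
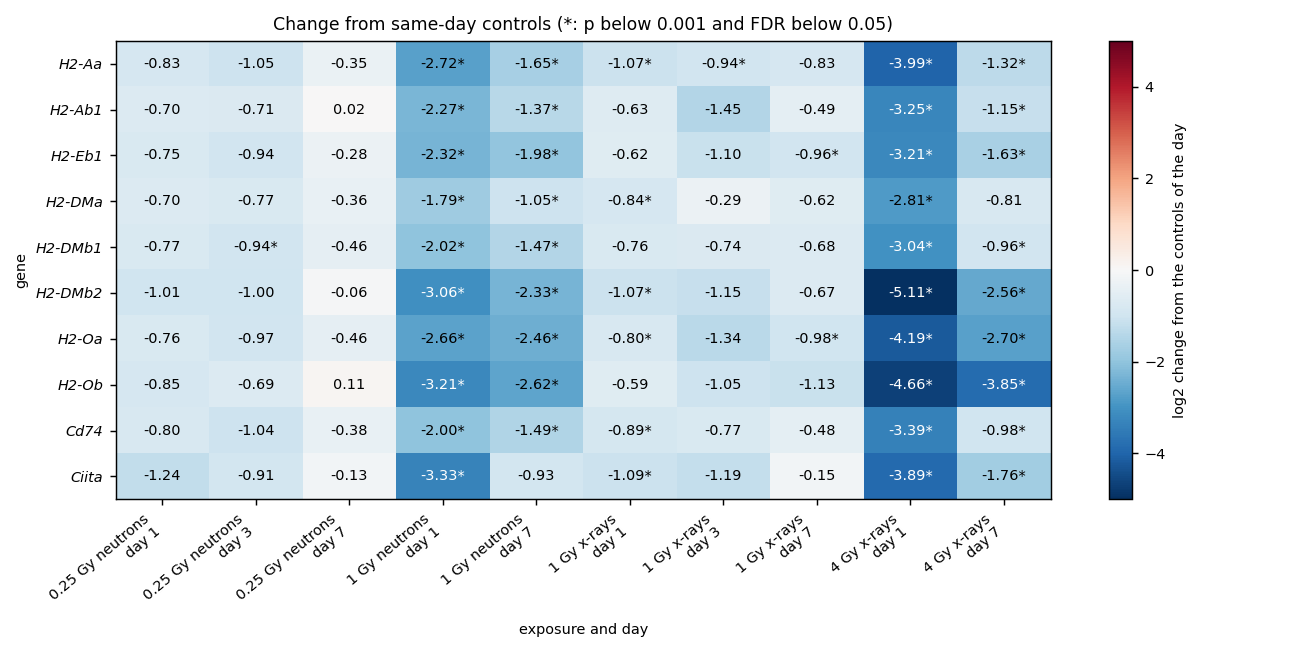
Log2 change of each class II gene (rows) from the controls of the same day, for the 10 exposures and days (columns), with blue for lower and red for higher and an asterisk for a called gene. The darkest column is 4 Gy of x-rays at day 1, where the changes run from -2.81 to -5.11, and the palest is 0.25 Gy of neutrons at day 7, where none was called.

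Among the classical chains, *H2-Aa*, the alpha chain of I-A, had levels of 4.80, 4.27, 4.78, 4.17 and 4.95 in the 5 controls of day 1. The 5 mice given 4 Gy of x-rays had -0.34, -0.05, 1.13, 0.97 and 1.29, and after 1 Gy of neutrons the 6 mice ran from 0.33 to 3.11 (median 1.95). Every mouse of both groups lay below every control, and the neutron mice overlapped those given x-rays. The change was -3.99 ± 0.34 (SE) after 4 Gy of x-rays, or 15.9-fold lower (limma, adjusted p = 6e-06), and -2.72 ± 0.42 after 1 Gy of neutrons, or 6.61-fold lower (limma, adjusted p = 0.00075). After 1 Gy of x-rays the 6 mice had levels of 3.22 to 3.74 (median 3.53), also all below the controls, and the change was -1.07 ± 0.19 (limma, adjusted p = 0.0039). The beta chains *H2-Ab1*, partner of *H2-Aa*, and *H2-Eb1*, the beta chain of I-E, moved by -3.25 and -3.21 after 4 Gy of x-rays and by -2.27 and -2.32 after 1 Gy of neutrons. Neither beta chain was called after 1 Gy of x-rays at day 1, where their changes were -0.63 and -0.62. C57BL/6 mice do not make the I-E alpha chain, so the E beta transcript has no partner protein in this strain.

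*Cd74*, the invariant chain, had levels of 6.22, 6.33, 6.22, 5.64 and 6.29 in the controls of day 1. The 4 Gy x-ray mice had 1.97, 2.11, 3.54, 2.93 and 3.18, and the 1 Gy neutron mice 2.51 to 5.05 (median 4.18). All lay below the controls, and the change was -3.39 ± 0.31 after 4 Gy of x-rays (10.5-fold lower), while 1 Gy of neutrons left it 3.99-fold lower (limma, adjusted p = 0.0025). *Cd74* moved after 1 Gy of x-rays by -0.89 ± 0.21 and was called, with 4 of 6 mice below the lowest control.

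The peptide editor H2-DM is made of *H2-DMa* and a beta chain from *H2-DMb1* or *H2-DMb2*. *H2-DMa* had levels of 2.24, 2.10, 2.28, 1.96 and 2.51 in the controls of day 1, and -1.06, -1.20, -0.17, -0.50 and -0.06 after 4 Gy of x-rays. The groups were separate, and the change of -2.81 ± 0.26 was the smallest of the 10 genes in that comparison. It was the smallest after 1 Gy of neutrons also, at -1.79 ± 0.34. *H2-DMb1* changed by -3.04 after 4 Gy of x-rays and -2.02 after 1 Gy of neutrons, while *H2-DMb2* changed by -5.11 ± 0.42 and -3.06 ± 0.40. The value for *H2-DMb2* after 4 Gy of x-rays includes 2 spots that were not well above background. The genes of these beta chains are near-identical, and cross-hybridization between their probes was not checked, so the split between them is uncertain.

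H2-DO, the modulator of H2-DM, had the largest day 1 changes of the 4 Gy x-ray mice among the 9 genes whose probes were well above background on all arrays. Its beta chain *H2-Ob* had levels of 5.05, 4.42, 4.74, 3.93 and 4.89 in the controls of day 1. The 5 mice given 4 Gy of x-rays had -0.53, -0.56, 0.10, -0.15 and 0.89, and after 1 Gy of neutrons the 6 mice 0.63 to 2.17 (median 1.46). Both groups lay far below the controls and overlapped each other, with changes of -4.66 ± 0.31 (25.2-fold lower) and -3.21 ± 0.30 (9.25-fold lower). The alpha chain *H2-Oa* changed by -4.19 ± 0.24 and -2.66 ± 0.29. *H2-Oa* was called after 1 Gy of x-rays at -0.80 ± 0.18, and *H2-Ob* at -0.59 ± 0.25 was not. A second detected probe of *H2-Ob* gave -4.73 for 4 Gy x-ray mice and -2.99 for 1 Gy neutron mice, and was called after 1 Gy of x-rays at -1.03.

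*Ciita*, the master regulator of the class II promoters, had levels of 1.09, 0.43, 0.25, 0.40 and 0.75 in the controls of day 1. The 4 Gy x-ray mice had -3.33, -3.71, -3.56, -2.91 and -3.03, and the 1 Gy neutron mice -3.61 to -2.25 (median -2.68). These groups overlapped each other and lay far below the controls. The change was -3.89 ± 0.24 after 4 Gy of x-rays (14.9-fold lower) and -3.33 ± 0.25 after 1 Gy of neutrons (10.1-fold lower; limma, adjusted p = 3.6e-05), the largest of the 10 genes after neutrons. *Ciita* ranged after 1 Gy of x-rays from -1.21 to 0.11 (median -0.52), with every mouse below the controls, and changed by -1.09 ± 0.25.

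The array carries 3 probes named *Ciita*, and they differed in the size of the change. The brightest, used here, lies at chr16:10526568-10526627 (mm9) and has 39 A among its 60 bases with 8 copies of CAAAA, a low-complexity sequence. The other 2, the nearer of which lies 34.238 kb away, belong to another transcript record. One of these changed by -4.05 after 4 Gy of x-rays, -3.06 after 1 Gy of neutrons and -0.86 after 1 Gy of x-rays at day 1, all called. The other changed by -0.92, -0.67 and -0.65, of which the first and last were called. All 3 probes were lower in these comparisons, but the size of the change of *Ciita* depends on the probe. For *H2-Ab1*, 2 probes overlap by 51 bases, so that they are not independent, and 7 of the 10 genes had a single probe.

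After 0.25 Gy of neutrons the differences at day 1 were smaller and were not called. All 10 members had negative changes, between -1.24 (*Ciita*) and -0.70, with a median of -0.78 against 0.12 over all genes. None passed limma's test, against 0.00921% of all genes called lower, although 6 had an unadjusted p below 0.05, and the random variance test also called none. *Ciita* was the only member whose groups did not overlap (1.96% of all genes), with levels of -1.78 to 0.14 (median -0.43) against controls of 0.25 to 1.09. Replicate 5 of this group was the lowest mouse for 6 members by a wide gap, and its B cell markers, described further on, were also low, at a mean level of 0.54 against a group median of 2.65. The part of that array in the result was not tested beyond leaving it out, which moved the median of the members to -0.47. At day 3, 0.25 Gy of neutrons gave changes of -0.69 to -1.05, of which *H2-DMb1* (-0.94 ± 0.19; limma, adjusted p = 0.049) was called, against 0.626% of all genes. This call was lost (0 members called) with normexp correction, spike-in scaling, no detection filter, a block for slide, scan date or replicate number, and when any of 8 among the 11 mice was omitted. At that day 6 members had groups that did not overlap, against 4.18% of all genes. Within the 1 scan date shared by 2 irradiated mice and the 5 controls of day 3, the median of the members was -0.50. At day 7 no member was called lower (0% of all genes), 3 had an unadjusted p below 0.05 in limma, and changes ran from -0.46 (*H2-DMb1*) to 0.11 (*H2-Ob*), around a median of -0.32 against 0.06 over all genes. With spike-in scaling, which put the median of all genes at -1.14, 6 members were called at day 7.

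**Figure D2:**
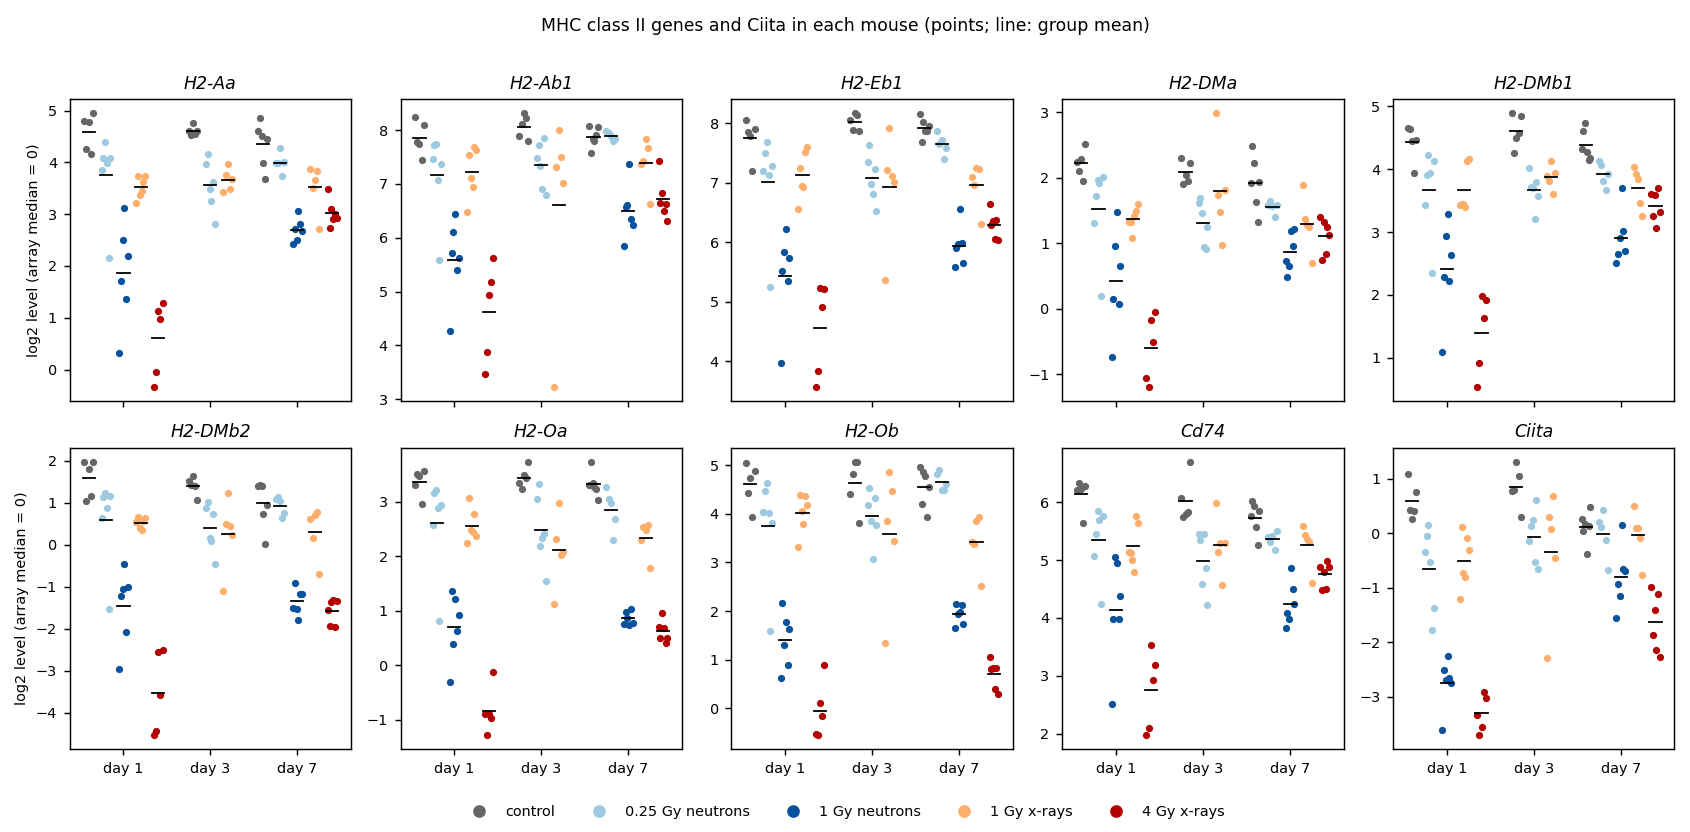
Log2 level of each class II gene in every mouse (points), by exposure and day, with a bar for the group mean; 0 is the array median of the detected probes. The lowest group mean of every gene belongs to day 1 and 4 Gy of x-rays, and the day 7 means of that exposure lie between it and the controls.

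At day 3, 1 Gy of x-rays called 1 member lower, *H2-Aa* (-0.94 ± 0.18), against 0.414% of all genes, and 3 did not overlap the controls, against 2.93%. The call was lost with normexp correction, with no detection filter and with a block for replicate number. It was also lost without x-ray replicate 2, 4 or 5 or control 2, 3, 4 or 5. With quantile scaling, or a block for slide or scan date, more members were called. *H2-Aa* in the 5 mice was 3.43, 3.75, 3.97, 3.49 and 3.68, all below the controls at 4.53 to 4.75. The median of the members was -1.07, but replicate 1 weighed on it. For *H2-Ab1* the 5 mice had 3.23, 7.32, 8.01, 7.51 and 7.01, and a second, overlapping probe gave the first mouse 2.99. That same mouse had the lowest *Ciita*, *H2-Ob*, *H2-Eb1*, *H2-DMb2* and *H2-Oa* of its group, and the highest *Cd74* (5.98) and *H2-DMa* (2.99). Without it the median of the members was -0.73 and 2 members were called. At day 7 after 1 Gy of x-rays, *H2-Eb1* (-0.96 ± 0.19) and *H2-Oa* (-0.98 ± 0.19) were called lower, against 0.709% of all genes. The count was 0 with normexp correction and 9 with spike-in scaling, where the median of all genes was -0.96. The other 8 had changes of -1.13 (*H2-Ob*) to -0.15 (*Ciita*), and *H2-Ob*, with 4 of 5 mice below the lowest control and a limma adjusted p of 0.031, failed only the limit on the unadjusted p.

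At day 7, class II transcripts were still low after the larger exposures. Of the 10 members, 9 were called lower after 1 Gy of neutrons, against 13.3% of all genes, and 9 after 4 Gy of x-rays, against 8.5%. For 4 Gy the count was 4 with normexp background correction and 5 with spike-in scaling. The same numbers of members, 9 and 9, had groups that did not overlap, against 13.7% and 8.65% of all genes. The median of the members was -1.57 after neutrons, where the median of all genes was 0.31, and -1.48 after 4 Gy of x-rays, where it was -0.04. The arrays of 1 Gy of neutrons at day 7 were also the dimmest of the series, and all 8 erythroid markers tested were called higher in them, with a median change of 2.82, against 25.1% of all genes. The part of these in the result was not tested. With 1 neutron mouse scanned on the date of the 6 controls of day 7, the median of the members within that date was -1.97, and all 10 were negative. At day 1, with 4 neutron mice and the 5 controls on a shared date, it was -2.53.

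At day 7 the H2-DO chains lay furthest from the controls among the members after both of these exposures. *H2-Ob* ran from 3.94 to 4.96 (median 4.66) in the 6 controls, from 1.65 to 2.15 (median 1.96) after 1 Gy of neutrons and from 0.29 to 1.06 (median 0.81) after 4 Gy of x-rays. The 3 groups did not overlap. The changes were -2.62 ± 0.20 and -3.85 ± 0.21, or 6.15-fold and 14.4-fold lower, and those of *H2-Oa* were -2.46 ± 0.15 and -2.70 ± 0.16. *H2-DMb2* changed by -2.33 and -2.56.

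The classical chains and *Cd74* lay nearer to the controls. *Cd74* ran from 5.26 to 6.03 (median 5.81) in the controls of day 7, from 3.82 to 4.86 (median 4.17) after neutrons and from 4.49 to 4.98 (median 4.84) after 4 Gy of x-rays. Both exposed groups lay below the controls, with changes of -1.49 ± 0.20 and -0.98 ± 0.17. *H2-Aa* changed by -1.65 and -1.32, *H2-Ab1* by -1.37 and -1.15, and *H2-Eb1* by -1.98 and -1.63. *H2-DMa* changed by -1.05 ± 0.22 after neutrons, which was called, and by -0.81 ± 0.21 after 4 Gy of x-rays, which was not (limma, adjusted p = 0.0088). *Ciita* ran from -0.38 to 0.48 (median 0.15) in these controls, from -1.56 to 0.14 (median -0.82) after neutrons and from -2.27 to -0.99 (median -1.64) after 4 Gy of x-rays. The neutron mice overlapped the controls and the 4 Gy mice did not. The change of *Ciita* was called after 4 Gy of x-rays (-1.76 ± 0.24) and not after neutrons (-0.93 ± 0.26; limma, adjusted p = 0.0066). The other probes of *Ciita* gave -0.86 (not called) and -1.41 (called) after 4 Gy of x-rays, and -0.07 and -0.48 after neutrons.

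The change between the days was tested as the effect at day 7 minus that at day 1. For 4 Gy of x-rays, 9 of 10 members were called, all toward the controls, against 12.4% of all genes called higher. With normexp background correction 2 were called, *H2-Aa* and *Cd74*. These 9 moved by 1.499 (*H2-Oa*) to 2.67 ± 0.39 (*H2-Aa*), with 2.41 ± 0.34 for *Cd74* and 2.14 ± 0.34 for *Ciita* on its brightest probe. *H2-Ob* moved by 0.81 ± 0.37 and was not called (limma, adjusted p = 0.08). For 1 Gy of neutrons only *Ciita* was called, at 2.40 ± 0.36 (limma, adjusted p = 1.2e-05), against 21.4% of all genes called higher. This call was lost with scan date as a block (1.68 ± 0.54), and the value turned to -0.14 with spike-in scaling. The other 9 moved by 0.20 (*H2-Oa*) to 1.07 (*H2-Aa*) in this scaling, and with spike-in scaling the members were lower at day 7 instead, with a median of -1.89 where all genes had -2.66. For 1 Gy of x-rays none was called, against 6.83% of all genes called higher, and 1 had an unadjusted p below 0.05 in limma. Values ran from -0.54 (*H2-Ob*) to 0.94 (*Ciita*). All values of *Ciita* in this paragraph are for its brightest probe. On the *Ciita* probe with the smallest day 1 changes, 4 Gy x-ray mice lay further from the controls at day 7 than at day 1. After 1 Gy of neutrons that probe moved little between the days. The remaining probe of *Ciita* moved toward the controls after both exposures.

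Neutrons and x-rays of the same 1 Gy were compared directly. By the study's methods the exposures also differed in source and in dose rate, which was far lower for the neutron beam. These cannot be told apart from the kind of radiation, here or against 4 Gy of x-rays. At day 1, 7 of 10 members were called lower after neutrons, against 7.72% of all genes. *H2-Ob* differed by -2.62 ± 0.28 (6.15-fold) and *Ciita* by -2.25 ± 0.27 (4.74-fold), and in both every neutron mouse lay below every x-ray mouse. *H2-DMa* (-0.95), *H2-DMb1* (-1.26) and *Cd74* (-1.10) did not pass. Within the scan date that held 2 neutron and 4 x-ray mice of day 1, all 10 differences were negative, with a median of -1.68, but with scan date as a block none was called in limma, and 1 with normexp correction and 2 with spike-in scaling. At day 7, 5 members were called lower after neutrons, against 5.67% of all genes: *H2-DMb2* (-1.66), *H2-Ob* (-1.49), *H2-Oa* (-1.47), *H2-Eb1* (-1.03) and *Cd74* (-1.01). Within the 2 shared scan dates of day 7 the medians were -1.07 (1 neutron against 4 x-ray mice) and -1.01 (4 against 1).

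Against 4 Gy of x-rays, 1 Gy of neutrons gave no called difference at day 1, where all 10 members were higher by 0.56 (*Ciita*) to 2.05 (*H2-DMb2*) and 8 had an unadjusted p below 0.05 in limma, while 0.0552% of all genes were called higher. A fit of all groups together called 7 of these. At day 7 *H2-Ob* alone was called, being higher after neutrons by 1.23 ± 0.18 (2.35-fold), against 31% of all genes called higher. With spike-in scaling this difference turned to -1.06. All 10 members were called lower after 4 Gy of x-rays than after 1 Gy at day 1, with differences of -4.07 to -1.97, against 13% of all genes. The median within the scan date holding 1 and 4 mice of the groups was -3.48. At day 7, 4 members were called lower after 4 Gy: *H2-Ob* (-2.72), *H2-DMb2* (-1.89), *H2-Oa* (-1.71) and *Ciita* (-1.60), against 5.54% of all genes. The other 6 differed by -0.68 to -0.18. The within-date median, over 6 and 4 mice, was -0.60, and with spike-in scaling the median of all 10 turned to 0.48 while that of all genes was 1.11.

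Markers of B cells moved in the same direction as the class II genes in the comparisons where most members were called. The B cell list holds 12 genes, of which 10 were on the array and tested, *Ighm* and *Ighd* not being matched here. All 10 were called lower after 1 Gy of neutrons at day 1 (median -2.61), against 10.5% of all genes. All 10 were called lower also after 4 Gy of x-rays at day 1 (median -4.24, against 18.6%) and day 7 (median -2.86, against 8.5%). After 1 Gy of neutrons at day 7, 8 were called lower (median -2.24, against 13.3%). After 1 Gy of x-rays at day 1, 7 were called lower (median -0.93, against 4.56%). The marker *Fcer2a*, the low-affinity IgE receptor, changed by -6.56 after 4 Gy of x-rays at day 1. The summed level of the list (log2) was 7.21 to 8.01 in the controls of day 1, 3.86 to 5.88 after 1 Gy of neutrons and 2.86 to 4.67 after 4 Gy of x-rays. At day 7 it was 7.66 to 7.95 in the controls, 5.37 to 5.73 after 1 Gy of neutrons and 4.69 to 5.30 after 4 Gy of x-rays. The defining marker *Ms4a1* was well above background on all 72 arrays, but *Fcer2a* on 70 and *Blk* on 60. The changes of *Fcer2a* and *Blk*, which enter the mean of the list, therefore include dim spots. Over the 13 group means the mean of the members and that of the B cell list had a Pearson correlation of 0.981, and single members ranged from 0.922 (*H2-DMa*) to 0.987 (*H2-Oa* and *H2-DMb2*), with all points from shared arrays. Other lists were close too: the correlation was 0.963 for the factors acting on *Ciita*, 0.885 for costimulatory genes and 0.865 for T cell markers, while it was 0.482 for dendritic cell and -0.120 for monocyte markers. The paper reports no significant change in the death or make-up of white blood cells after irradiation. It also reports total blood counts within the normal range at days 1 and 7. The part of B cell number in the result was not tested.

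**Figure D3:**
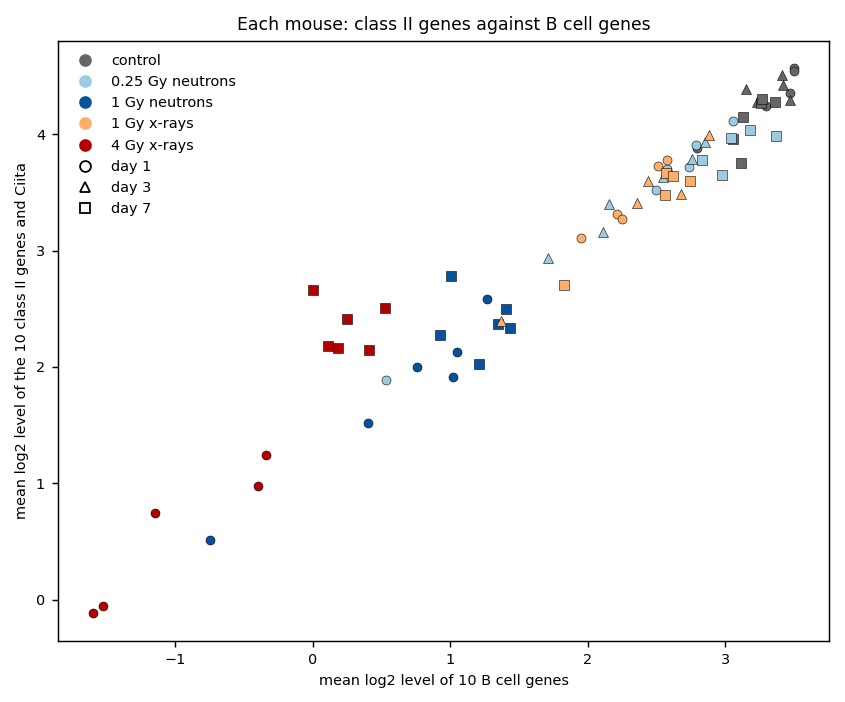
Mean log2 level of the 10 class II genes (vertical) against that of the 10 B cell markers (horizontal), 1 point for each of the 72 mice, coloured by exposure. The lowest points on both axes are 4 Gy x-ray mice of day 1 (circles), among which lies 1 mouse of 1 Gy of neutrons at day 1, and the 4 Gy mice of day 7 (squares) lie above the day 1 mice of like B cell level. Circles are day 1, triangles day 3 and squares day 7.

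Levels were next centred on the 10 B cell markers of each array, which asks whether class II transcripts fell more or less than those. Because the markers fell, this centring turns most genes of the array upward: 88.3% of all genes were called higher after 1 Gy of neutrons at day 1, 81.2% at day 7, and 97.1% and 92.7% after 4 Gy of x-rays. After 1 Gy of neutrons at day 1 none of the 10 was called either way in limma, with a median of 0.20, and after 4 Gy of x-rays at day 1 only *H2-DMa* was, at 1.496 ± 0.35. After 1 Gy of neutrons at day 7 *H2-DMa* was called at 0.93 ± 0.22. After 4 Gy of x-rays at day 7, 7 members were called higher relative to the B cell markers: *H2-DMa* (2.14), *H2-DMb1* (1.99), *Cd74* (1.97), *H2-Ab1* (1.80), *H2-Aa* (1.63), *H2-Eb1* (1.31) and *Ciita* (1.19). This share of 7 of 10 is below that of all genes. *H2-DMb2* (0.39), *H2-Oa* (0.25) and *H2-Ob* (-0.90) did not pass.

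**Figure D4:**
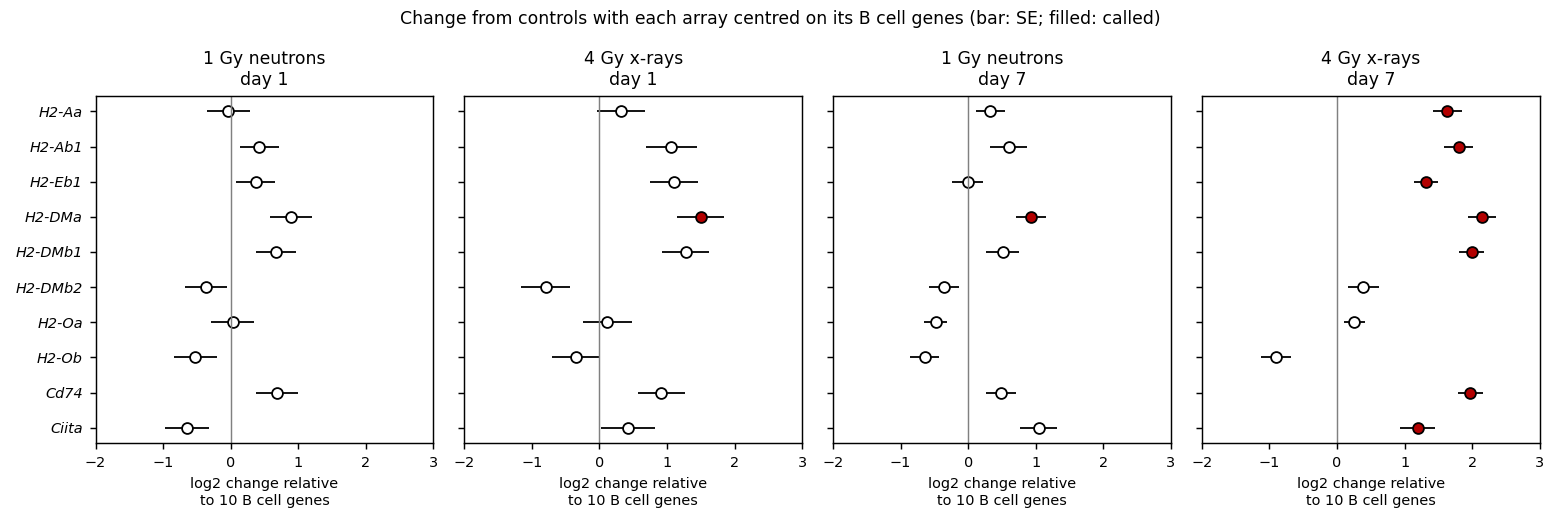
Log2 change of each class II gene from controls after centring on the 10 B cell markers, for 1 Gy of neutrons and 4 Gy of x-rays at days 1 and 7, with standard errors and filled points for called genes. At day 7 after 4 Gy of x-rays 7 points are filled, all above 0, and *H2-Ob* lies at -0.90.

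The unequal change of *Cd74* and *H2-Ob* can be read inside each array, without scaling between arrays. The log2 difference of *Cd74* minus *H2-Ob* was 0.80 to 1.82 (median 1.19) in the controls of day 7 and 3.69 to 4.60 (median 4.05) after 4 Gy of x-rays. After 1 Gy of neutrons at day 7 it was 1.95 to 2.88 (median 2.28). At day 1 it was 1.17 to 1.91 (median 1.48) in the controls, 1.81 to 3.75 (median 2.92) after neutrons and 2.29 to 3.44 (median 2.67) after 4 Gy of x-rays. The 4 Gy mice of day 7 did not overlap the controls or the neutron mice, and the pair of genes was chosen after its values were seen, so no test is given. The difference of *H2-DMb1* minus *H2-DMb2* was 2.92 to 4.13 in the controls of day 7 and 4.37 to 5.65 after 4 Gy of x-rays.

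Markers of the other blood cells that can carry class II were listed also. Of 9 monocyte markers tested, 5 were called higher after 4 Gy of x-rays at day 7 (list median 0.70), against 9.06% of all genes, with *Cd14* at 2.10 ± 0.38. In that comparison *Cx3cr1* was lower (-0.98) and not called, and *Csf1r* stood at -0.04. After 1 Gy of neutrons at day 7, 2 monocyte markers were called higher, against 25.1%. After 4 Gy of x-rays at day 1, 4 were called lower, against 18.6% of all genes, among them *Cx3cr1* (-2.13) and *Ace* (-1.72). In the same comparison 2 were called higher, among them *Cd14* (2.74), as were 1791 of all 10863 genes. The summed level of the monocyte list was 5.88 to 6.5 in the controls of day 7 and 5.99 to 6.68 after 4 Gy of x-rays. Of 9 dendritic cell markers tested, 3 were called lower after 4 Gy of x-rays at day 1, against 18.6% of all genes. These were *Flt3* (-2.82), *Ccr9* (-2.14) and *Cd209a* (-1.29). In that comparison *Clec9a* was higher by 0.93 and was not called. At day 7, 2 of 9 were called higher after 4 Gy of x-rays, *Itgax* (1.21) and *Clec10a* (1.04), against 9.06% of all genes. There *Siglech* (-0.68) and *Ccr9* (-0.59) were lower and not called. After 1 Gy of neutrons at day 7, 2 of 9 were called higher, which is near the 25.1% of all genes. After these neutrons *Zbtb46* changed by 1.77, while *Ccr9* (-1.01) and *Cd209a* (-0.54) were lower and not called. *Xcr1*, which defines one class of dendritic cell, was not detected. The part of these cells in the result was not tested. T cell markers do not mark cells with class II in mice. After 4 Gy of x-rays at day 1, 6 of 10 were called lower, against 18.6% of all genes, and 1, *Cd4* (2.42 ± 0.37), higher. After 1 Gy of neutrons at day 1, 4 of 10 were called lower, against 10.5% of all genes. Liver transcripts varied widely between mice: the summed level of 6 hepatocyte markers was 4.19 to 10.99 in the controls of day 1 and 11.59 to 12.24 after 4 Gy of x-rays, and its part in the result was not tested.

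Of 15 factors known to act on the *Ciita* gene, 8 were tested, and those called lower included B cell factors. *Ebf1* and *Spib*, transcription factors of B cells, were lower after 1 Gy of neutrons at day 1 (-3.33 and -2.41) and after 4 Gy of x-rays at day 1 (-5.29 and -3.91) and day 7 (-2.85 and -2.63). At day 7 after 1 Gy of neutrons they were lower also (-1.99 and -1.81). *Irf4* was lower in the same 4 comparisons (-1.97, -3.09, -0.71 and -1.23). *Ebf1* (-1.14) and *Irf4* (-1.12) were called at day 1 after 1 Gy of x-rays, and *Ebf1* at day 3 after 0.25 Gy of neutrons (-1.12). *Irf8* was called only at day 1, after 1 Gy of neutrons (-1.19) and 4 Gy of x-rays (-1.89). *Socs1*, an inhibitor of interferon signalling, was called in both directions, at 0.88 for 1 Gy x-ray mice of day 1 and -0.74 for 1 Gy neutron mice of day 7. *Spi1*, the myeloid and B cell factor PU.1, *Jak2*, a kinase of the interferon-gamma receptor, and *Prdm1*, the repressor Blimp-1, were called in none of the 10 comparisons with controls. *Pax5* was not detected, and *Ifngr1*, *Ifngr2*, *Jak1*, *Irf1* and *Irf2* were detected but varied too little between arrays to be tested, so nothing is said of their change. Of the 8 factors that bind the class II promoters with Ciita, only *Rfxank*, a subunit of RFX, and *Creb1*, which binds the X2 box, were tested. *Rfxank* rose after 1 Gy of neutrons (0.79) and fell after 4 Gy of x-rays (-0.74) at day 7, and *Creb1* fell after 4 Gy of x-rays at day 1 (-1.48). *Rfx5* was not detected.

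**Figure D5:**
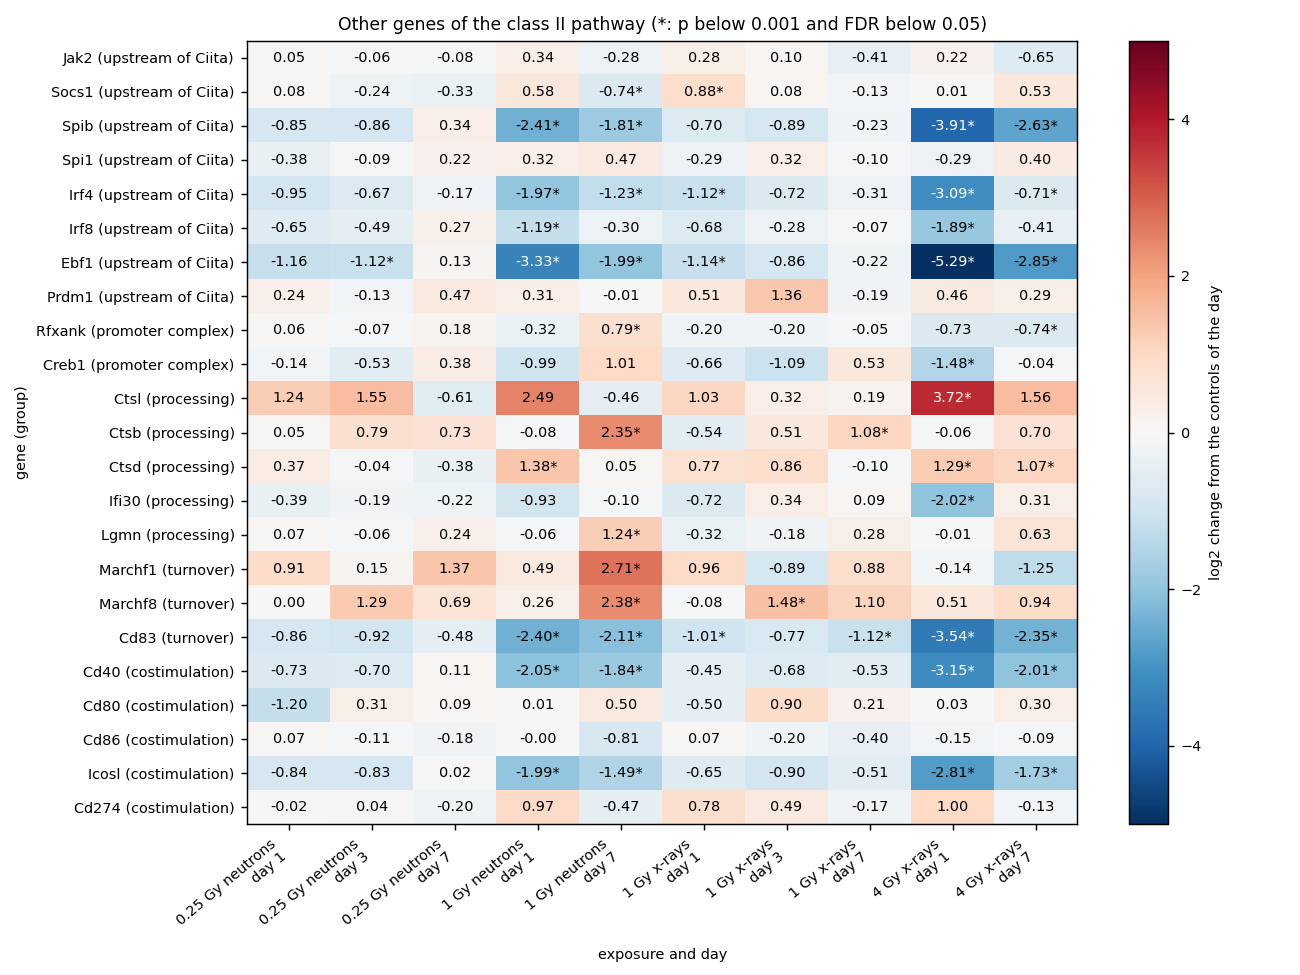
Log2 change from controls for the tested genes of the lists around the class II pathway (rows), by exposure and day (columns), with an asterisk for a called gene. *Ebf1*, *Spib*, *Cd83*, *Cd40* and *Icosl* fell with the class II genes, and the cathepsins *Ctsl*, *Ctsd* and *Ctsb* rose in some of the columns.

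The genes that act on class II proteins inside the cell changed in both directions. Of the 9 endosomal proteases and helpers listed, 5 were tested. *Ctsl*, which can cut the invariant chain, was 3.72 ± 0.53 higher after 4 Gy of x-rays at day 1, and *Ctsd* rose by 1.38, 1.29 and 1.07 after 1 Gy of neutrons at day 1 and after 4 Gy of x-rays at days 1 and 7. *Ctsb* rose after 1 Gy of neutrons (2.35) and 1 Gy of x-rays (1.08) at day 7. *Ifi30*, the endosomal thiol reductase, fell by 2.02 after 4 Gy of x-rays at day 1. *Ctss*, the main protease of the invariant chain in B cells, varied too little to be tested. Of the ubiquitin ligases that remove class II from the surface, *Marchf1* rose by 2.71 ± 0.31 and *Marchf8* by 2.38 ± 0.27 after 1 Gy of neutrons at day 7, and neither was called after 4 Gy of x-rays. *Cd83*, which opposes Marchf1, fell in all 6 comparisons at days 1 and 7 with 1 Gy or more, from -1.01 (1 Gy of x-rays, day 1) to -3.54 (4 Gy of x-rays, day 1). Of 5 costimulatory genes, *Cd40* and *Icosl*, both of B cells among others, fell after 1 Gy of neutrons (-2.05 and -1.99 at day 1, -1.84 and -1.49 at day 7) and after 4 Gy of x-rays (-3.15 and -2.81, then -2.01 and -1.73). *Cd80*, *Cd86* and *Cd274* were called in none of the comparisons with controls. Of 7 class I genes, *B2m* alone varied enough to be tested, and rose after 1 Gy of neutrons at day 7 (0.92). With spike-in scaling the median of all genes in that comparison was -2.13, so the rises given for it are relative to the other genes of the array.

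*Ciita* had its lowest group mean after 4 Gy of x-rays at day 1 (-3.31 ± 0.34 SD, n = 5), followed by 1 Gy of neutrons at day 1 (-2.75 ± 0.46, n = 6), 4 Gy of x-rays at day 7 (-1.64 ± 0.54, n = 6) and 1 Gy of neutrons at day 7 (-0.81 ± 0.57, n = 6). In range, 4 Gy of x-rays overlapped 1 Gy of neutrons at day 1, and did so again at day 7. The highest neutron mouse of day 1 (-2.25) also lay just above the lowest 4 Gy mouse of day 7 (-2.27). These values are for the brightest probe only, and the group order on the other *Ciita* probes is not given here. On the brightest probe the next 6 exposed groups had means between -0.65 and -0.01 and overlapped one another. The control means on it, at 0.12, 0.58 and 0.85, were the highest of the 13. By contrast, *H2-Ob* at day 7 after 4 Gy of x-rays (0.70 ± 0.30, n = 6) stood second lowest, below both neutron groups (1.40 ± 0.58 at day 1 and 1.93 ± 0.20 at day 7). Among the 10853 genes outside the set, *Prss12* (r = 0.992), *Map4k1* (0.989), *Pold1* (0.985), *Gm5107* (0.985) and *Stap1* (0.982), with 3 unnamed transcripts, had group means most like those of *H2-Aa*, *H2-Ab1*, *H2-Eb1* and *Cd74* over the 13 groups. For *Ciita* they were *Stap1* (0.975), *Filip1l* (0.969), *Fbxw10* (0.966) and *B3gnt8* (0.965), with 1 unnamed transcript.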

How the data were processed

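Blood RNA of 72 mice was hybridised to 1-colour Agilent arrays, 1 array a mouse, and the deposited scanner files hold, per the file headers, background-subtracted intensities made by the authors with Agilent Feature Extraction 12.0.2 (the version is from the submitters' processing notes). The authors also deposited a table of log2 values for the same arrays: 12 of its 72 columns followed the array they were named for and 60 followed another (21 of these an array of another group), so it served only as an alternative for 0.25 Gy neutrons at day 1, with 5 mice against 5. Whether the scanner files or that table carry the right sample names was not tested. Every group here rests on the sample names of the scanner files. Here the log2 of the processed intensity was centred on each array's median over detected probes. Of 39429 probes, 28330 were named through their accession, 19808 were detected (flagged as dim on under 25% of arrays), and 12556 differed by 1.5-fold from the median on at least 20% of the 56 arrays of days 1 and 7. The brightest probe of each gene gave 10863 genes. Day 3 groups are known from the labels. Groups were compared with limma 3.58.1 in R 4.3.3 (lmFit and eBayes, 2-sided) in 19 comparisons: 10 with the controls of the day, which the exposures share, 6 between exposures and 3 between days. The scripts were tested on simulated data, and tables and figures used pandas 2.3.3, numpy 2.4.6 and matplotlib 3.10.9 in Python 3.11.15. The members, 14 gene lists and tests were chosen with earlier results of these data known. The genes named are the 10 members, up to 4 called genes with the largest change of each other list, and those most like the members over 13 group means; other genes named were chosen after their values were seen. Alternatives were the background correction, the scaling (75th percentile, quantile, spike-in, B cell genes), the filters, dim spots as missing, the mean of a gene's probes, a random variance test, 1 fit of all groups, blocks for slide, scan date or replicate number, and leaving out each mouse. The highest correlation between 2 arrays of a group was 0.991, and whether any pair came from the same library was not tested. The number of arrays limits the precision. Some genes of the lists are not reported here by name.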

Additional observations from a re-analysis of the deposited data

Results flagged for a closer look

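Within groups of 5 or 6 mice, 11 of 130 sets of values had a mouse far from the others by Dixon's criterion, in each case the lowest. For a single set, chance gives such a mouse at either end in about 1 in 20. The 130 sets are 10 genes on the same arrays and are not independent, so that rate gives no expected count for them. Replicate 5 of 0.25 Gy neutrons at day 1 was such a mouse for *H2-Aa* (2.15), *H2-Ab1* (5.58), *H2-Eb1* (5.24), *H2-DMb2* (-1.53), *H2-Oa* (0.811) and *H2-Ob* (1.59). Without it the median change of the members from controls was -0.47 in place of -0.78, and 0 members were called either way. Replicate 1 of 1 Gy x-rays at day 3 stood apart for *H2-Ab1* (3.23). Replicate 4 of the day 1 controls was low for *Cd74* (5.64) and *H2-DMb1* (3.94), and without it 1 Gy x-rays at day 1 called 5 members in place of 6. Replicate 5 of 1 Gy x-rays at day 7 was low for *Cd74* (4.61), and replicate 1 of 1 Gy neutrons at day 1 for *Ciita* (-3.61).

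The change from controls differed between days 1 and 7 by the interaction test. For 1 Gy neutrons this held for *Ciita* (2.40, day 7 minus day 1), but not with scan date as a block (1.68) or spike-in scaling (-0.14). For 4 Gy x-rays, where 2 of these calls were left with normexp correction, it held for *H2-Aa* (2.67), *H2-Ab1* (2.10), *H2-Eb1* (1.57), *H2-DMa* (2.01), *H2-DMb1* (2.08), *H2-DMb2* (2.55), *H2-Oa* (1.499), *Cd74* (2.41) and *Ciita* (2.14). Both *Ciita* values are for its brightest probe, and 1 other probe of *Ciita* did not move toward the controls after 4 Gy x-rays.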

How the results depend on the processing

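Counts of members called are given as N (neutrons) or X (x-rays) with the dose in Gy, against controls (C) unless another exposure is named. With normexp background correction they were 0 for N 0.25 day 3 (main 1), 1 for N 0.25 day 7 (main 0), 0 for X 1 at days 1, 3 and 7 (main 6, 1 and 2), 4 for X 4 day 7 (main 9), 1 for N 1 against X 1 day 1 (main 7), 0 for N 1 against X 4 day 7 (main 1), 2 for X 4 against X 1 day 7 (main 4) and 2 for the X 4 day effect (main 9). Spike-in scaling gave 0 for N 0.25 day 3, 6 for N 0.25 day 7, 0 for X 1 day 1, 9 for X 1 day 7, 5 for X 4 day 7, 2 and 10 for N 1 against X 1 at days 1 and 7 (main 7 and 5), 1 and 9 for N 1 against X 4 (main 0 and 1), 1 for X 4 against X 1 day 7 and 5 for the N 1 day effect (main 1). It moved the median of all genes by up to -2.66 (the N 1 day effect) and 1.11 (X 4 against X 1 day 7). Under it N 1 against X 4 at day 7 turned to -2.06 (*H2-DMb2*), -2.05 (*H2-Oa*), -1.06 (*H2-Ob*) and -1.47 (*Ciita*), and the N 1 day effect to -2.21 (*H2-Eb1*), -1.99 (*H2-DMb1*), -1.82 (*H2-DMb2*), -2.34 (*H2-Oa*), -1.95 (*H2-Ob*) and -0.14 (*Ciita*). Centring on the B cell genes, by its construction, gave 0 for N 0.25 day 3, 0 and 1 for N 1 at days 1 and 7 (main 10 and 9), 0 for X 1 at days 1, 3 and 7, and 1 for X 4 day 1 (main 10), and turned these values. N 0.25 day 3 gave 0.037 (*H2-DMb1*). N 1 day 1 gave 0.42 (*H2-Ab1*), 0.37 (*H2-Eb1*), 0.89 (*H2-DMa*), 0.67 (*H2-DMb1*), 0.029 (*H2-Oa*) and 0.69 (*Cd74*), and day 7 gave 0.33 (*H2-Aa*), 0.60 (*H2-Ab1*), 0.93 (*H2-DMa*), 0.51 (*H2-DMb1*) and 0.49 (*Cd74*). X 1 day 1 gave 0.12 (*H2-DMa*), 0.17 (*H2-Oa*) and 0.071 (*Cd74*), and day 3 gave 0.050 (*H2-Aa*). X 4 day 1 gave 0.32 (*H2-Aa*), 1.07 (*H2-Ab1*), 1.11 (*H2-Eb1*), 1.496 (*H2-DMa*), 1.28 (*H2-DMb1*), 0.12 (*H2-Oa*), 0.92 (*Cd74*) and 0.42 (*Ciita*). X 4 day 7 gave 1.63 (*H2-Aa*), 1.80 (*H2-Ab1*), 1.31 (*H2-Eb1*), 2.14 (*H2-DMa*), 1.99 (*H2-DMb1*), 0.39 (*H2-DMb2*), 0.25 (*H2-Oa*), 1.97 (*Cd74*) and 1.19 (*Ciita*). For N 0.25 day 3, the 75th percentile, quantile scaling, no variability filter, the mean of probes and 1 fit of all groups each gave 3, and no detection filter 0. Quantile scaling gave 3 for X 1 day 3, 8 for N 1 against X 1 day 7 and 4 for N 1 against X 4 day 7. No detection filter gave 3, 0 and 1 for X 1 at days 1, 3 and 7 and 3 for N 1 against X 1 day 7. A fit of all groups gave 1 for N 0.25 day 1 (main 0), 1 and 1 for X 1 at days 1 and 7, 3 for N 1 against X 1 day 7, and 7 and 0 for N 1 against X 4 at days 1 and 7. Scan date as a block gave 0 for N 0.25 day 3, 0 and 5 for X 1 at days 1 and 3, 0 and 3 for N 1 against X 1 at days 1 and 7, 0 for N 1 against X 4 day 7 and 0 for the N 1 day effect. X 1 shared no scan date with its controls, so its block was random and cannot separate date from exposure. Slide as a block gave 0 for N 0.25 day 3, 2 and 3 for X 1 at days 1 and 3, 0 and 2 for N 1 against X 1 at days 1 and 7, 5 for N 1 against X 4 day 1 and 0 for X 4 against X 1 day 7. The replicate numbers do not pair the mice (mean correlation of same-numbered mice -0.30 to 0.22), and the replicate block gave 0 for N 0.25 day 3, 2 and 0 for X 1 at days 1 and 3 and 2 for N 1 against X 1 day 7. Leaving out each mouse gave 0 to 4 for N 0.25 day 3, 9 to 10 for N 1 day 7 and for X 4 day 7, 3 to 5 for X 1 day 1, 0 to 2 for X 1 day 3, 1 to 3 for X 1 day 7, 5 to 9 and 3 to 6 for N 1 against X 1 at days 1 and 7, and 4 to 5 for X 4 against X 1 day 7. For N 0.25 day 3 it was 0 without neutron replicate 3, 4, 5 or 6 or control 1, 3, 4 or 5, 3 without neutron replicate 1 and 4 without neutron replicate 2. For X 1 day 1 it was 3 without control 1, 2, 3 or 5 or x-ray replicate 1, 3 or 4. For X 1 day 3 it was 2 without x-ray replicate 1 or 3 and 0 without x-ray replicate 2, 4 or 5 or control 2, 3, 4 or 5. For X 1 day 7 it was 1 without x-ray replicate 2, and for N 1 against X 1 day 7 it was 3 without neutron replicate 1, 2, 3, 5 or 6 or x-ray replicate 1, 2, 3 or 4. The cause of these shifts was not tested. The dim arrays of N 1 day 7 limit what can be said of low transcripts there.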
